A study of Mus musculus with 4 samples.

Results

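The genes described here encode the enzymes that break down the branched-chain amino acids leucine, isoleucine and valine, the steps that carry propionyl-CoA to succinyl-CoA, and the enzymes that use ketone bodies. They were chosen by name from a list of 30 genes, of which 29 had a value among the 13677 genes of the tables; Bdh1 is not analysed here. RNA was sequenced from inguinal white adipose tissue (ingWAT), a subcutaneous fat depot of the mouse. The series holds 2 wildtype (WT) libraries and 2 libraries labelled FLCNKO, an adipose knockout (adipKO) of Flcn. Folliculin, the tumour suppressor that Flcn encodes, is studied here for its role in browning, in which white fat takes on the heat-producing character of brown fat. The driver that restricts the knockout to adipose tissue, the deleted part of the gene, and the strain, sex and age of the mice are not stated in the labels. No label ties a library to a separate animal, so each p-value reflects the spread among 4 libraries, which may be technical.

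The branched-chain amino acids first lose their amino group to the aminotransferases BCAT1, in the cytosol, and BCAT2, in mitochondria. The keto acids are then committed to breakdown by the branched-chain keto acid dehydrogenase complex, which the kinase BCKDK switches off by phosphorylation and the phosphatase PPM1K switches on. Leucine ends as acetyl-CoA and acetoacetate, valine as propionyl-CoA and isoleucine as both acetyl-CoA and propionyl-CoA. Propionyl-CoA enters the citric acid cycle as succinyl-CoA by way of a carboxylase and a cobalamin-dependent mutase. Fat cells, brown fat cells above all, are known to burn these amino acids.

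All values are the authors' log2 expression values, on which 1 unit is a doubling. They are not stated to be divided by gene length, so the members' levels are not compared with each other. A log2 difference is the FLCNKO mean minus the WT mean, with its standard error (SE) from limma, and adjusted p-values are Benjamini-Hochberg values across the 13677 genes. The libraries were brought to nearly the same distribution, with medians between 10.7636 and 10.7645, and the sequencing depth is unknown. Adipoq, the adiponectin gene that marks fat cells, was at 18.31 and 18.17 in WT and 17.72 and 17.85 in FLCNKO, so the labelled tissue's marker was present in all 4 libraries. Flcn itself did not separate the groups (WT 12.36 and 12.21, FLCNKO 12.35 and 12.12), so the gene-level value does not check the label.

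No member passed the threshold. Limma called 0 of 29 members higher and 0 lower at an adjusted p under 0.05, against 0.98% of all genes called higher and 0.614% called lower. Without adjustment, 10 members had a p under 0.05 and were higher in FLCNKO (34.5%), and 1 was lower, against 12.1% of all genes higher and 10.3% lower. The 10 were Oxct1, Mmab, Mut, Mmaa, Acat1, Pccb, Acad8, Bckdk, Pcca and Bckdha, with log2 differences from 0.45 to 0.89 (1.37-fold to 1.86-fold) and adjusted p-values from 0.0647 to 0.144. Among them were 5 of the 6 propionate genes and 2 of the 3 measured ketone body genes, and 0 of the 4 leucine genes. The median log2 difference was 0.19 over the 29 members and 0.0046 over all genes. In 15 members both FLCNKO libraries lay above both WT libraries, in 3 both lay below, and in 11 the groups overlapped; over all genes 29.2% lay apart upward and 25.4% downward.

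**Figure D1:**
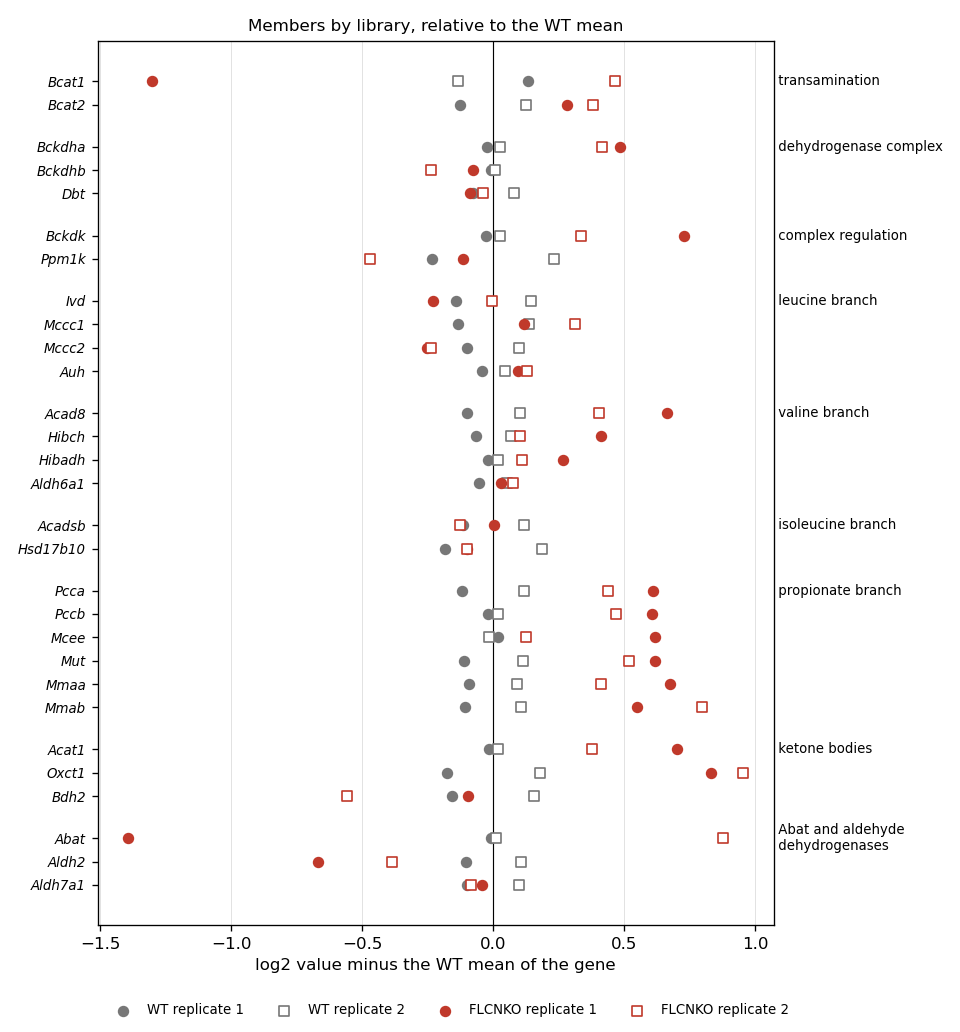
Log2 value of each member in each library minus the WT mean of that gene (x axis), with genes grouped by pathway step (y axis); grey marks WT, red FLCNKO, filled circles replicate 1 and open squares replicate 2. In the propionate branch all red points lie to the right of the grey ones, while in the leucine and isoleucine branches red and grey points mix, apart from Mccc2 (red to the left) and Auh (red to the right).

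The promoter windows of genes with small p-values are shown with matches to the motifs listed after them, some of which are general promoter elements. Whether these members share a regulator was not tested. They are taken from RefSeq (GRCm38.p6) and run 5′ to 3′ up to the base before the annotated start; 23 of the 29 measured members had a window, and Abat, Acat1, Aldh2, Aldh7a1, Dbt and Mut had none. Capitals mark matches on either strand. The windows are, in order, those of Oxct1 (chr15:4026178-4026427, plus strand), Pccb (chr9:101034885-101035134, minus strand), Mmab (chr5:114444028-114444277, minus strand), Mmaa (chr8:79294962-79295211, minus strand) and, for contrast, the last 60 bases of that of Mccc2, a leucine gene (chr13:100015640-100015699, minus strand). The Mmaa and Mccc2 windows were chosen after their matches were seen. Bckdha, Pcca and Acad8 had smaller p-values than Mmaa and had windows, which are not shown, and that of Bckdha held no match. The windows shown therefore do not give how often such promoters hold a match.
Oxct1: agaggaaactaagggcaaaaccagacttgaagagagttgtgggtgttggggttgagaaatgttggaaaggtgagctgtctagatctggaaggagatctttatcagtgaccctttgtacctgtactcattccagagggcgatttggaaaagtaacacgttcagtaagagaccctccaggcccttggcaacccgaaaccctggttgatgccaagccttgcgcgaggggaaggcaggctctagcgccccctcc
Pccb: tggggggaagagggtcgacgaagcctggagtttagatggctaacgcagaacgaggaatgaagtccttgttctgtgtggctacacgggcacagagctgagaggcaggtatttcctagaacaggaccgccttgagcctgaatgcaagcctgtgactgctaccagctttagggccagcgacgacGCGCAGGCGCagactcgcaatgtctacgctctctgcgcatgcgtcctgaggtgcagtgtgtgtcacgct
Mmab: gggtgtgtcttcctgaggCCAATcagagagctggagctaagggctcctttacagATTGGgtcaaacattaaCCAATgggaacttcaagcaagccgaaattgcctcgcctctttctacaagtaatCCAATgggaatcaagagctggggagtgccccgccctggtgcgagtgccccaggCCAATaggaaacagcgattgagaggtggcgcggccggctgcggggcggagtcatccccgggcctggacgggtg
Mmaa: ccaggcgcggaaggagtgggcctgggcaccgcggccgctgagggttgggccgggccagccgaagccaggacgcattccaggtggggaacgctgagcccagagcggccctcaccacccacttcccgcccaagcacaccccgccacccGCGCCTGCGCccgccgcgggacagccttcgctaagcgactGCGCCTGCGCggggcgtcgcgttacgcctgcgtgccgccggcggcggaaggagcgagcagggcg
Mccc2: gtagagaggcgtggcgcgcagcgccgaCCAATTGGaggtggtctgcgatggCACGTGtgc

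Motifs were searched on both strands in the whole windows of 300 bases. The 23 members had 29 such windows, so a member with several had several chances of a match. The extended ERR element TNAAGGTCA, the site of estrogen-related receptors, occurred in the windows of 0 of the 23 members, and in 1.28% of all 32851 windows. The PPAR response element, 2 copies of AGGTCA separated by 1 base, was found in 0 members and in 0.0396% of all windows. The palindromic E-box CACGTG, part of the site of the MiT/TFE factors, was found in 1 member, Mccc2, and in 7.15% of all windows. Further motifs were added after these results were seen. The NRF1 motif, 2 copies of GCGC separated by an A and 1 further base, was found in Pccb, Mmaa and Hibadh, and in 4.6% of all windows, and Mmaa held it at 2 places. The nuclear receptor core AGGTCA, which is part of the ERR and PPAR elements, occurred in 6 members (Aldh6a1, Bcat1, Bckdhb, Hibadh, Pcca and Ppm1k). It was in 7 of the 29 member windows and in 16.3% of all windows. The CCAAT box occurred in 15 members (18 of 29 member windows) and in 37.4% of all windows. The Mmab window held 5 of them, the most of any member window. That number was reached by 0.271% of all windows, but this share was taken only for the window with the most, so it is not a test. A match describes the letters only.

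The 6 propionate genes had log2 differences between 0.37 and 0.67 with a median of 0.54, and in 6 of 6 both FLCNKO libraries lay above both WT libraries (29.2% of all genes). Pcca and Pccb encode the subunits of propionyl-CoA carboxylase. Pccb (ENSMUSG00000032527) was at 14.50 and 14.54 in WT and 15.12 and 14.99 in FLCNKO. Both FLCNKO libraries were above both WT libraries, by a log2 difference of 0.54 ± 0.11 (SE from 2 libraries a group; limma adjusted p = 0.0808), a 1.45-fold difference. Pcca (ENSMUSG00000041650) had 13.47 and 13.71 in WT against 14.20 and 14.03, a log2 difference of 0.53 ± 0.13 (limma adjusted p = 0.11). The carboxylase subunits thus differed by nearly the same amount.

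Mcee, the epimerase that follows the carboxylase, was 11.60 and 11.57 in WT and 12.20 and 11.71 in FLCNKO. Only FLCNKO replicate 1 stood clearly above WT, and Mcee was the 1 propionate gene with an unadjusted p above 0.05 (log2 difference 0.37 ± 0.19, limma adjusted p = 0.317). Mut (also written Mmut; ENSMUSG00000023921) encodes methylmalonyl-CoA mutase, which makes succinyl-CoA. Its values were 13.81 and 14.04 in WT and 14.54 and 14.44 in FLCNKO, so that the groups were apart by more than the gap within either (0.57 ± 0.13, limma adjusted p = 0.0892).

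Mmaa and Mmab supply the mutase with its cofactor: MMAB makes adenosylcobalamin and MMAA loads it onto the enzyme. Mmab (ENSMUSG00000029575) was 11.27 and 11.49 in WT and 11.93 and 12.18 in FLCNKO, the largest difference of the branch at 0.67 ± 0.15 (SE, n = 2 per group; limma adjusted p = 0.0872), or 1.59-fold. Mmaa was 11.15 and 11.34 in WT and 11.92 and 11.66 in FLCNKO (0.54 ± 0.15, limma adjusted p = 0.119). Thus the enzymes and the cofactor genes of the branch had like differences, although FLCNKO replicate 1 was the higher of its group for 5 of the 6 genes and replicate 2 was the higher for Mmab.

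Among the ketone body genes, Oxct1 (ENSMUSG00000022186) encodes the transferase that activates acetoacetate with CoA from succinyl-CoA, the step that lets a tissue burn ketone bodies. Its values were 14.99 and 15.34 in WT and 16.00 and 16.12 in FLCNKO. Both FLCNKO libraries were well above both WT libraries, and the difference of 0.89 ± 0.16 on the log2 scale was the largest of the 29 members (1.86-fold; 95% interval 0.48 to 1.30; limma adjusted p = 0.0647). On the opposite strand, 12.6% of the Oxct1 exon bases overlap exons of BC037032, and the strand setting of the counting is not given. Acat1, the thiolase that splits acetoacetyl-CoA and also closes isoleucine breakdown, was 14.91 and 14.95 in WT and 15.63 and 15.31 in FLCNKO (0.54 ± 0.15, limma adjusted p = 0.121). Bdh2, a cytosolic dehydrogenase, was 8.89 and 9.20 in WT and 8.95 and 8.49 in FLCNKO, and its groups overlapped (-0.33 ± 0.25, limma adjusted p = 0.5).

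At the entry to the pathway the aminotransferases differed from each other in how they spread. Bcat2, the mitochondrial form, was 14.40 and 14.65 in WT and 14.81 and 14.91 in FLCNKO. The groups did not overlap, but the log2 difference of 0.33 ± 0.13 had a 95% interval from -0.0071 to 0.67 (limma adjusted p = 0.23). Bcat1, the cytosolic form, was 10.44 and 10.17 in WT and 9.00 and 10.77 in FLCNKO. FLCNKO replicate 1 was the lowest of the 4 libraries and replicate 2 the highest, so the difference of -0.42 ± 0.58 (limma adjusted p = 0.718) became 0.46 without replicate 1.

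The estimates for the subunits of the dehydrogenase complex had mixed signs, none passed the adjusted threshold, and no test compared the subunits with each other. Bckdha, its E1 alpha subunit, was 14.33 and 14.38 in WT and 14.84 and 14.77 in FLCNKO, with FLCNKO higher by 0.45 ± 0.10 (SE, n = 2 per group; limma adjusted p = 0.0954). On the opposite strand, B3gnt8 covers 61.7% of the Bckdha exon bases, so without a stated strand setting reads of these genes cannot be told apart. Bckdhb, the E1 beta subunit, was 13.10 and 13.12 in WT and 13.04 and 12.88 in FLCNKO (-0.16 ± 0.11, limma adjusted p = 0.466), with both FLCNKO libraries slightly below WT. Dbt, the E2 core, was 13.57 and 13.73 in WT and 13.56 and 13.61 in FLCNKO, groups that overlapped, with a log2 difference of -0.06 ± 0.11 and a 95% interval from -0.35 to 0.22. Dld, the E3 subunit that the complex shares with other dehydrogenases and that was named after its values were seen, was 14.60 and 14.68 in WT and 15.78 and 15.31 in FLCNKO (0.90 ± 0.18, limma adjusted p = 0.0769).

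The estimates for the regulators of the complex had opposite signs, but the groups were apart for Bckdk only. Bckdk, the inhibitory kinase, was 12.76 and 12.81 in WT and 13.52 and 13.12 in FLCNKO, higher by 0.53 ± 0.16 (limma adjusted p = 0.144). Ppm1k, the activating phosphatase, was 10.75 and 11.22 in WT and 10.87 and 10.52 in FLCNKO, and its groups overlapped. Its log2 difference was -0.29 ± 0.22 (95% interval -0.85 to 0.26, limma adjusted p = 0.487), so a direction is not established. Phosphorylation of the complex itself was not measured.

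In the leucine branch 0 of 4 genes had an unadjusted p under 0.05, against 12.1% of all genes higher and 10.3% lower. At those shares a count of 0 among 4 genes does not set the branch apart. Mccc1 and Mccc2 encode the subunits of methylcrotonyl-CoA carboxylase, and their log2 differences had opposite signs, 0.21 ± 0.14 and -0.25 ± 0.12 (limma adjusted p = 0.444 and 0.29). Ivd, the isovaleryl-CoA dehydrogenase that opens the branch, had -0.12 ± 0.16, and Auh, the hydratase, 0.11 ± 0.10. The 95% intervals of the 4 genes lay between -0.54 and 0.58; those of Mccc1 and Auh reach into the range of the propionate differences. No test compared the branches with each other.

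In the valine branch the signs were all positive, from 0.05 to 0.54, and 3 of 4 genes had groups apart upward (29.2% of all genes). Acad8, isobutyryl-CoA dehydrogenase, was 12.07 and 12.27 in WT and 12.84 and 12.58 in FLCNKO, and was the 1 valine gene with an unadjusted p under 0.05 (0.54 ± 0.14, limma adjusted p = 0.118). Hibch and Hibadh, which act on hydroxyisobutyrate, had log2 differences of 0.26 ± 0.15 and 0.19 ± 0.12. Aldh6a1, which makes propionyl-CoA from the last valine intermediate, was 16.20 and 16.30 in WT and 16.28 and 16.33 in FLCNKO, with a log2 difference of 0.05 ± 0.12 (95% interval -0.26 to 0.37). Of the isoleucine genes, Acadsb, the dehydrogenase of 2-methylbutyryl-CoA, and Hsd17b10, the hydroxyacyl-CoA dehydrogenase, had overlapping groups and log2 differences of -0.06 ± 0.13 and -0.10 ± 0.15.

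The remaining members were the aminotransferase Abat and 2 aldehyde dehydrogenases. Aldh2, the mitochondrial acetaldehyde dehydrogenase, was the 1 member lower in FLCNKO at an unadjusted p under 0.05. Its values were 16.22 and 16.43 in WT and 15.66 and 15.94 in FLCNKO, lower in both FLCNKO libraries than in either WT library (-0.53 ± 0.16, limma adjusted p = 0.146). Abat, which degrades GABA and takes part in valine breakdown, was 10.68 and 10.70 in WT and 9.30 and 11.57 in FLCNKO. As with Bcat1, the FLCNKO libraries stood on opposite sides of WT, and the log2 difference was -0.26 ± 0.72 (limma adjusted p = 0.867), and 0.88 without FLCNKO replicate 1. Aldh7a1, which acts in lysine breakdown, had overlapping groups (-0.06 ± 0.12).

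**Figure D2:**
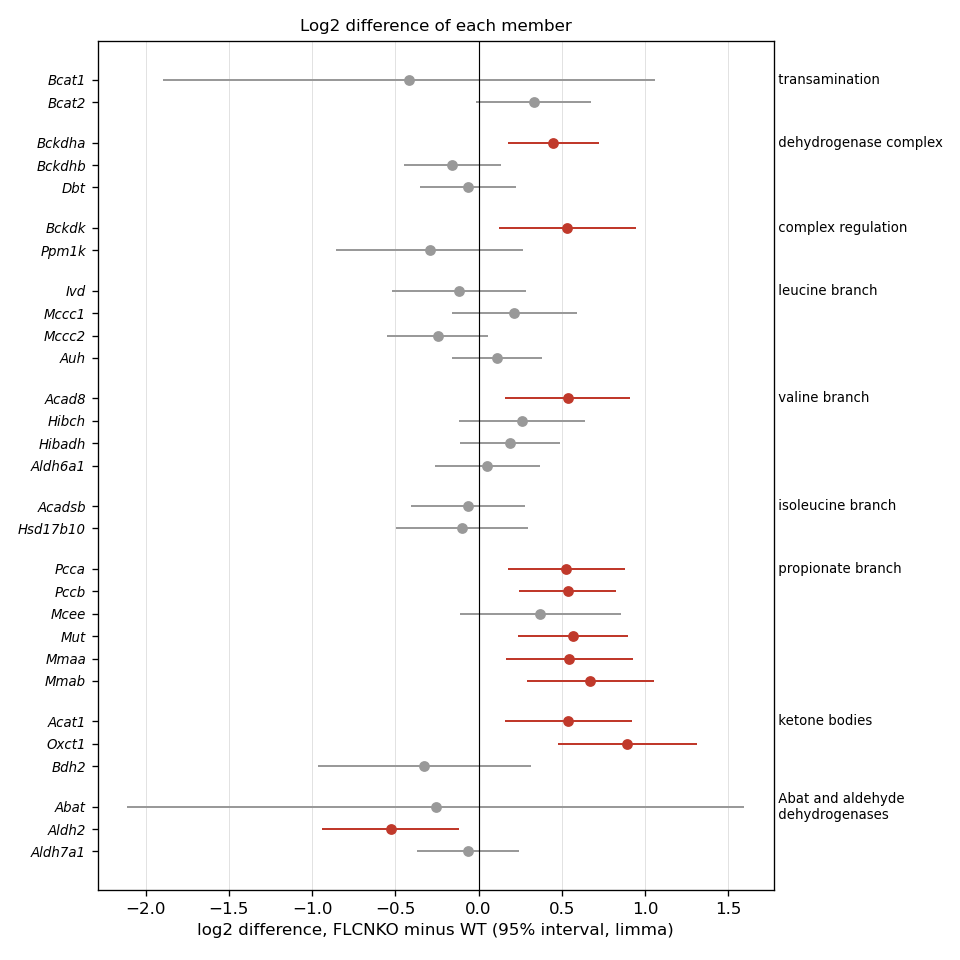
Log2 difference of each member, FLCNKO minus WT (x axis, points), with its 95% interval from limma (bars, 2 libraries per group); red marks an unadjusted p under 0.05 and grey the rest, and no member had an adjusted p under 0.05. Oxct1 has the highest difference at 0.89, 5 of the 6 propionate genes are red, and the intervals of Bcat1 and Abat are the widest.

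For 18 members the unadjusted p was 0.05 or more. Of these, 16 had a 95% interval within -1 and 1 on the log2 scale, which leaves out Bcat1 and Abat. A p that misses the threshold does not show that the groups are alike.

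The WT libraries were not interchangeable for these genes. WT replicate 1 lay below WT replicate 2 in 27 of the 29 members (93.1%), while over all genes it lay below in 53.7%, and it was the lower library for all 10 members that were higher in FLCNKO. Without WT replicate 1 the log2 differences of the 10 stayed positive, from 0.41 to 0.72, but only Oxct1 kept an unadjusted p under 0.05 (background 5.53% of genes higher). The 10 differences lay between 0.47 and 1.07 without WT replicate 2. They lay between 0.34 and 0.95 without FLCNKO replicate 1, and between 0.48 and 0.83 without FLCNKO replicate 2. The 10 had been picked by p in these same libraries, so these ranges are not an independent check. The median log2 difference of the 29 members was 0.08 without WT replicate 1, 0.13 without FLCNKO replicate 1 and 0.12 without FLCNKO replicate 2.

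Markers of several cell types moved with the groups. Of 10 brown and beige fat markers, 3 rose and 0 fell at a limma adjusted p under 0.05 (0.98% and 0.614% of all genes). The log2 of the summed level of the 10 was 14.53 and 13.93 in WT and 17.70 and 16.44 in FLCNKO. Ucp1, Dio2 and Prdm16 of this list had overlapping groups. Of 12 fibroblast and matrix markers 5 fell, with summed levels of 20.38 and 20.23 in WT and 19.33 and 19.26 in FLCNKO, and of 10 macrophage markers 2 fell, with 17.40 and 17.14 against 16.56 and 16.29. White fat cell markers (14 genes) had summed levels of 22.20 and 22.15 in WT and 21.95 and 22.08 in FLCNKO, with 0 called. At an unadjusted p under 0.05, 3 were lower (21.4%, against 10.3% of all genes) and 1 higher (7.14%, against 12.1%). Cfd differed most, at -1.13 (limma adjusted p = 0.0691). The part of these markers in the members' differences was not tested, and in bulk tissue fewer cells of a type and less RNA per cell cannot be told apart. When each library was centred on the median of the white fat cell markers, an alternative added after the data were seen, the 10 differences lay between 0.60 and 1.04 and 1 of them, Oxct1, had an unadjusted p under 0.05 (background 4.72%). That marker median was 17.46 and 17.39 in WT and 16.92 and 17.64 in FLCNKO.

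Skeletal muscle, a tissue that also carries out these steps, was present to unequal extents. The log2 of the summed level of 17 measured muscle markers was 17.54 and 14.56 in WT and 16.47 and 13.68 in FLCNKO, and the myosin gene Myh2 was at 9.31 and 5.21 in WT and 7.20 and 2.37 in FLCNKO. A few high genes can carry such a sum: in FLCNKO replicate 2 Acta1 alone was at 13.32. The median of the 17 markers was 12.67 and 9.85 in WT and 12.01 and 5.42 in FLCNKO, a wider gap between the replicate 2 libraries than in the sums. Of the 17 markers 16 had a negative log2 difference, with a median of -2.48, and limma called 0 at an adjusted and 0 at an unadjusted p under 0.05. The muscle sum was highest in WT replicate 1 and lowest in FLCNKO replicate 2. Acta1 and Des were instead lowest in WT replicate 2 (12.21 and 10.45), and were 13.32 and 10.99 in FLCNKO replicate 2. Without FLCNKO replicate 2 the 10 member differences lay between 0.48 and 0.83, and without WT replicate 1 between 0.41 and 0.72. Each of these fits keeps libraries with unequal muscle sums. The part of muscle in the members' differences was not tested.

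**Figure D3:**
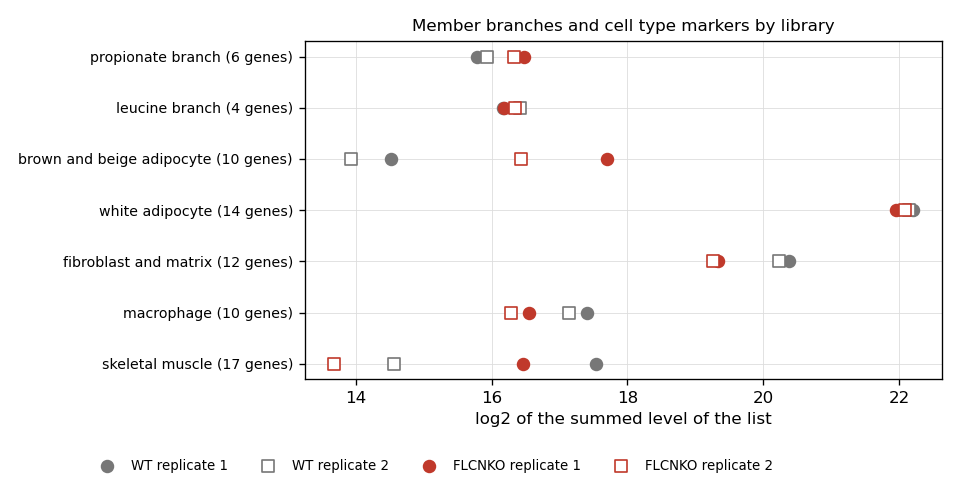
Log2 of the summed level (x axis) of the propionate and leucine genes and of 5 lists of cell type markers (y axis) in each library; grey marks WT, red FLCNKO, filled circles replicate 1 and open squares replicate 2. The propionate sum is 15.79 and 15.93 in WT and 16.47 and 16.33 in FLCNKO, brown and beige markers are higher and fibroblast and macrophage markers lower in FLCNKO, and muscle markers are lower in replicate 2 than in replicate 1 of each group, and lower in FLCNKO than in WT at each replicate number. The muscle sum of FLCNKO replicate 2, 13.68, lies close to the value of Acta1 alone, 13.32.

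Of 40 other genes of the same pathways and of neighbouring steps, called other pathway genes here, 36 had a value. The neighbouring steps include fat oxidation, with Hadha, Hadhb and Acaa2, and malonyl-CoA, with Mlycd and Acsf3. Limma called 2 higher and 0 lower after adjustment (p under 0.05), against 0.98% and 0.614% of all genes. Without adjustment 12 were higher (33.3%, against 12.1% of all genes) and 2 lower (5.56%, against 10.3%). Mmachc (ENSMUSG00000028690), which strips incoming cobalamin of its upper ligand before the mutase can use it, rose from 10.87 and 10.82 in WT to 11.76 and 11.73 in FLCNKO. The FLCNKO values had an SD of 0.016, and the difference between the groups was 0.90 ± 0.11 (SE; limma adjusted p = 0.0431), or 1.87-fold. Mlycd, malonyl-CoA decarboxylase, rose from 11.82 and 11.86 to 13.04 and 12.74, by 1.05 ± 0.14 (limma adjusted p = 0.0476). Without the mean-variance trend, or with any 1 library left out, limma called 0 of all genes higher, so neither call could hold there; with each library left out in turn the log2 difference was at least 0.88 for Mmachc and at least 0.90 for Mlycd. Centred on white fat cell markers, where 135 of all genes were called higher, neither gene passed (limma adjusted p = 0.546 and 0.386).

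Next by p were Acsf3, which makes malonyl-CoA in mitochondria, and Acaa2, a thiolase of fatty acid breakdown. Acsf3 was 11.65 and 11.83 in WT and 12.67 and 12.53 in FLCNKO (0.86 ± 0.13, limma adjusted p = 0.0517). Acaa2 was 14.09 and 13.78 in WT and 15.92 and 15.28 in FLCNKO, apart by 1.66 ± 0.25 (limma adjusted p = 0.0522). All 9 measured genes of the steps shared with fat oxidation and the citric acid cycle had groups apart upward (29.2% of all genes), with a median log2 difference of 0.98.

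The transport genes were named after their values were seen. Slc25a44, the mitochondrial carrier of branched-chain amino acids, was 12.89 and 12.73 in WT and 13.08 and 13.32 in FLCNKO (0.38 ± 0.13, limma adjusted p = 0.187). Slc16a1, a monocarboxylate transporter that also carries ketone bodies, was 11.76 and 11.95 in WT and 13.45 and 12.83 in FLCNKO (1.29 ± 0.23, limma adjusted p = 0.064). Slc7a5, the light chain of a plasma membrane carrier of large neutral amino acids, lay on the other side, with 8.05 and 7.93 in WT and 6.82 and 7.38 in FLCNKO (-0.89 ± 0.33, limma adjusted p = 0.209).

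**Figure D4:**
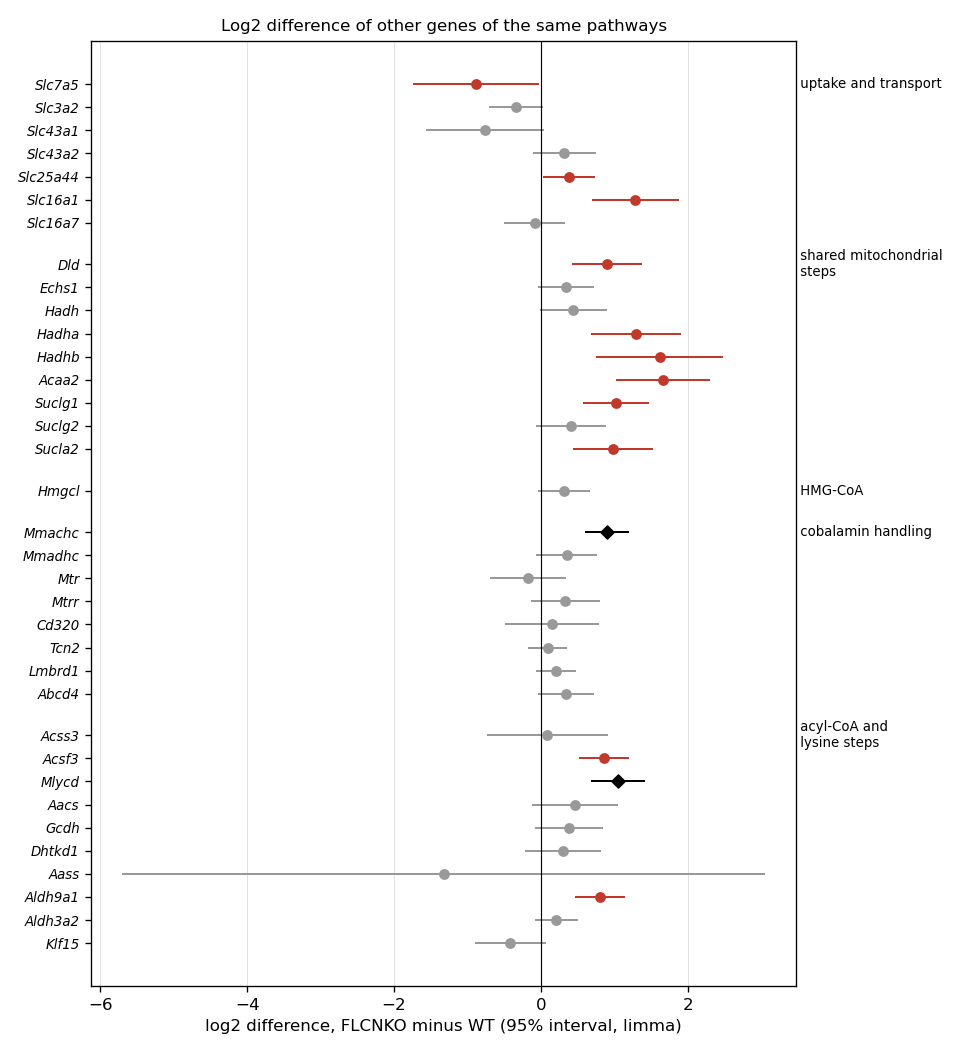
Log2 difference, FLCNKO minus WT (x axis, points), of 35 other genes of the same pathways and of neighbouring steps, grouped by step, with 95% intervals from limma (bars, 2 libraries per group). Black diamonds mark the 2 genes with an adjusted p under 0.05, Mmachc and Mlycd, red an unadjusted p under 0.05 and grey the rest; Slc7a5 is the 1 red point below 0, at -0.89.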

How the data were processed

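RNA was sequenced from 4 libraries, 2 WT and 2 FLCNKO, grouped and numbered by their titles. The authors deposited log2 expression values per Ensembl gene; STAR, limma and the build mm9 are named per the submitters' processing notes, while the counting program, its annotation and its use of strand are not stated there. The deposited values had nearly equal distributions, which hides shifts shared by most genes, and the depth behind them is unknown. Symbols matched 13592 of 13677 identifiers.

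A linear model with group as its term was fitted to all 13677 genes with limma 3.58.1 in R 4.3.3, with a mean-variance trend (2 residual and 3.09 prior degrees of freedom) and two-sided tests. Simulated data had 2 libraries against 2, independent noise and 200 of 13677 genes changed. There it recovered 24.5% of genes with a log2 change of 1 and 73.1% of those with a change of 2. Changes below 1, such as those of the members, were not simulated, so these shares do not give the recovery for them. Members, lists and motifs were chosen with earlier results of these data known. All members are named, as are, of the other pathway genes, those past the adjusted threshold and the 4 with the smallest p; others are said to be chosen later, and 1 gene that is counted is not reported here by name or drawn. Alternatives were a filter at a mean of 8, repeated quantile normalization, median centring, no trend, robust moderation, a replicate block and leaving out each library. Shared sequence was measured on GENCODE M21 transcripts by counting how many of each gene's 31-base words other genes also hold; this was at most 5.8% for every member. Overlap of exons came from the same annotation (GRCm38). Figures were drawn with matplotlib 3.10.9.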

Additional observations from a re-analysis of the deposited data

How the results depend on the processing

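Under repeated quantile normalization and median centring no count of calls moved by over 1.5 times. With the replicate number as a block, 2 members were higher at a limma adjusted p under 0.05 (Oxct1 at 0.0385 and Mmab at 0.0449), while the count over all genes went from 134 to 401 of 13677; of the other pathway genes 10 were higher at an adjusted p, and 5 were lower at an unadjusted p under 0.05 (13.1% of all genes). The libraries share only a number (correlation of deviations 0.363, with 2 pairs). At an adjusted p, a filter at a mean of 8 gave 4 other pathway genes higher (187 of all genes), robust moderation 5 (201) and no trend 0 (0 of all genes). The filter, which removes Slc7a5, left 1 lower at an unadjusted p (11.7%). Robust moderation also called Acsf3 (limma adjusted p = 0.0424) and Acaa2 (0.0433), as did the filter and the block. Centring on white fat cell markers moved the median of all genes to 0.15 and that of the members to 0.34, and left 1 member higher (4.72% of all genes), 0 members lower and 0 other genes lower (2.13%) at an unadjusted p; 2 other pathway genes were higher there at an adjusted p, among them Acaa2 (0.0086). Leaving out each library gave 1 to 13 members higher (5.53% to 12.7% of all genes) and 0 to 3 lower, and 1 to 4 other genes lower (4.67% to 12.6%), at an unadjusted p, and member medians from 0.080 to 0.21. At an adjusted p it gave 0 other genes higher, as over all genes. The direction turned for 8 of 38 single genes. Leaving out each library, the ranges were -1.30 to 0.46 for Bcat1, -1.39 to 0.88 for Abat, -0.14 to 0.013 for Dbt, -0.26 to 0.025 for Ivd, -0.18 to 0.054 for Acadsb, -0.28 to 0.084 for Hsd17b10, -0.16 to 0.035 for Aldh7a1 and -0.17 to 0.063 for Flcn. The positive values came without WT replicate 2 for Dbt, Ivd, Acadsb, Hsd17b10 and Aldh7a1, without FLCNKO replicate 1 for Bcat1 and Abat, without FLCNKO replicate 2 for Acadsb (0.0043) and Flcn, and without WT replicate 1 for Flcn (0.020). Centred on white fat cell markers Dbt was 0.083, Ivd 0.030, Acadsb 0.086, Hsd17b10 0.048, Aldh7a1 0.083 and Flcn 0.096. The cause was not tested. No depth is known, so values of low genes have no counting error attached.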
